A study of Ambystoma mexicanum with 8 samples.

Results

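The transcripts described here were uneven among 4 regenerated axolotl jaws and even among the jaws of 3 of these animals before surgery. They are 31 of the 18035 rows of the deposited count table, and 31 of the 1019 rows of middle abundance (3.04%). Levels are in CPM, which scales the reads on a row to a library total of 1000000. A row was a member when its mean level over 7 libraries was from 50 to under 500 CPM and its highest level among the 4 regenerated libraries was at least 3 times the lowest. The highest level among 3 pre-surgery libraries was to be at most 2 times the lowest, and the levels of the groups had to overlap. For every ratio 1 CPM was added to each level. The levels of these same libraries chose the members, so their spread is described here and not tested.

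The study set jaw tissue of albino-type Ambystoma mexicanum, regrown for 5 weeks, against jaw tissue removed at surgery. The animals were juveniles of 5 cm, and the jaw was removed 5 mm from the midline. Regenerated jaw of animals 2, 3, 6 and 11 gave 4 libraries of 724555 to 942477 counts. Pre-surgery jaw of animals 2, 3 and 6 gave 3 libraries of 714809 to 2519291 counts, while that of animal 11, with 489 counts, took no part in the choice. No other allele, agent or control treatment is given in the labels. All rows carry ENSXETT identifiers, of which the axolotl RefSeq table (assembly UKY_AmexF1_1) lists 0. The species of the transcript set that the reads were counted on is not given in the sources used here. The rows need therefore not be axolotl transcripts, and the effect of that set on the levels was not tested. The files do not pair them with gene names, so no role is given to a member, and the labelled tissue could not be checked against marker genes.

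The axolotl is a salamander that regrows an amputated limb, tail or lower jaw through a blastema, a mound of proliferating cells that forms under the wound epidermis and later differentiates. A jaw holds several tissues that regrowth has to replace, among them cartilage, dermal bone, muscle, teeth, nerve, blood vessels and skin. In bulk tissue such as this, a lower level of a transcript can come from fewer cells of a type or from less RNA per cell, and these cannot be told apart.

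Among the 1019 rows of middle abundance, 52 (5.1%) differed at least 3-fold among the 4 regenerated libraries. Among the 3 pre-surgery libraries 10 rows did. Fewer libraries give a smaller spread, and any 3 of the regenerated libraries held 35 to 43 such rows. The cause of the difference between the groups was not tested. The reverse pattern, at least 3-fold before surgery and at most 2-fold after regeneration, was seen in 2 rows. Most rows of this abundance were even before surgery (958 of 1019, 94.0%), and 33 rows met both limits on the spread. The requirement of overlap then left out 2 rows. In both of them the regenerated library of animal 3 was the lowest of the 7. The first stood at 66.8, 14.0, 38.2 and 33.1 CPM in regenerated jaw of animals 2, 3, 6 and 11, against 158, 89.6 and 112 CPM in pre-surgery jaw of animals 2, 3 and 6. The second stood at 53.7, 3.24, 37.1 and 20.7 CPM in regenerated jaw, against 113, 61.9 and 97.2 CPM in pre-surgery jaw.

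**Figure D1:**
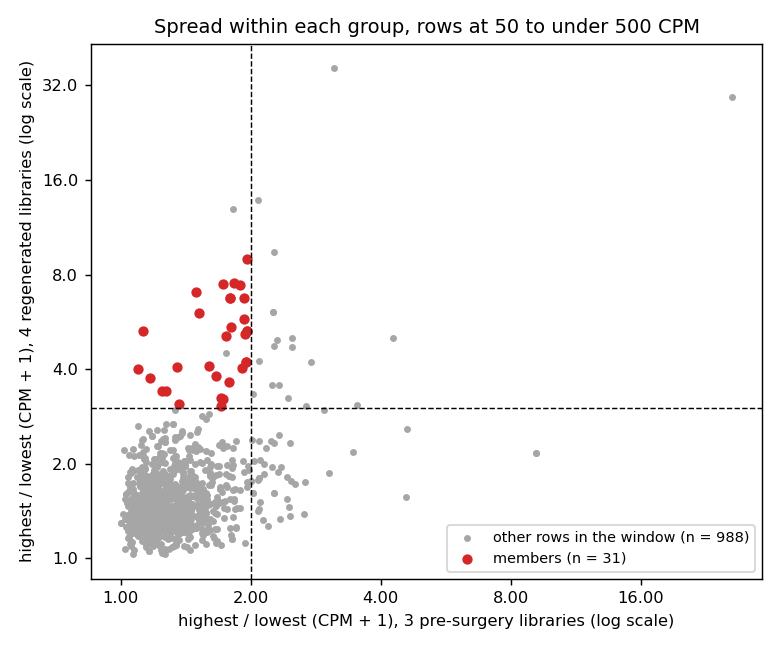
Each point is a row with a mean level of 50 to under 500 CPM. The vertical axis is the ratio of the highest to the lowest level (CPM + 1) among 4 regenerated libraries and the horizontal axis the same ratio among 3 pre-surgery libraries, both on log scales, with dashed lines at the limits of 3 and 2. The 31 members lie above 3 and left of 2, while most of the other rows lie below 2 on both axes.

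The ratio among regenerated libraries ran from 3.05 to 8.96 over the members, with a median of 5.12, against a median of 1.498 over all 1019 rows. Among pre-surgery libraries it ran from 1.09 to 1.97, with a median of 1.76, against 1.28 over all 1019 rows. The median coefficient of variation of the members was 71.5% in regenerated jaw and 28.4% in pre-surgery jaw. Over all 1019 rows it was 18.5% in regenerated jaw and 13.6% in pre-surgery jaw. The members were thus also less even before surgery than the usual row. Their abundance was ordinary for the window, with a median mean level of 94.0 CPM against 92.4 CPM over all 1019 rows. The limits cut through a continuous range. The lowest regenerated ratio of a member was 3.05, and the highest of an even row that missed the limit was 2.97. The highest pre-surgery ratio of a member was 1.97, and an uneven row at 2.03 was left out. Mean levels of members ran from 50.2 to 499 CPM, and rows at 49.8 and 502 CPM met every other criterion.

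The members fell into a few repeated shapes, seen in the map of member levels. Animal 3's regenerated library was the highest of the 4 in 18 members (58.1%), against 16.8% of all 1019 rows. Animal 11's was the highest in 12 members (38.7%), against 57.3% of all rows, a contrast that turned round with TMM scaling, explained below. Animal 2's was the highest in 1 member, and that of animal 6 in 0. The lowest library was that of animal 6 in 15 members, that of animal 2 in 9, that of animal 11 in 4 and that of animal 3 in 3. Of the 24 orders that 4 libraries can take, members showed 10. The order from animal 3 down through animals 2 and 11 to animal 6 held 13 members (41.9%), against 3.53% of all rows. The order from animal 11 down through animals 6 and 3 to animal 2 held 6 members (19.4%), against 11.3% of all rows. These shares describe rows chosen for their spread in the same libraries. Without the regenerated library of animal 3, 13 rows met the rule, 12 of them members, and without that of animal 11, 19 rows did, all members.

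**Figure D2:**
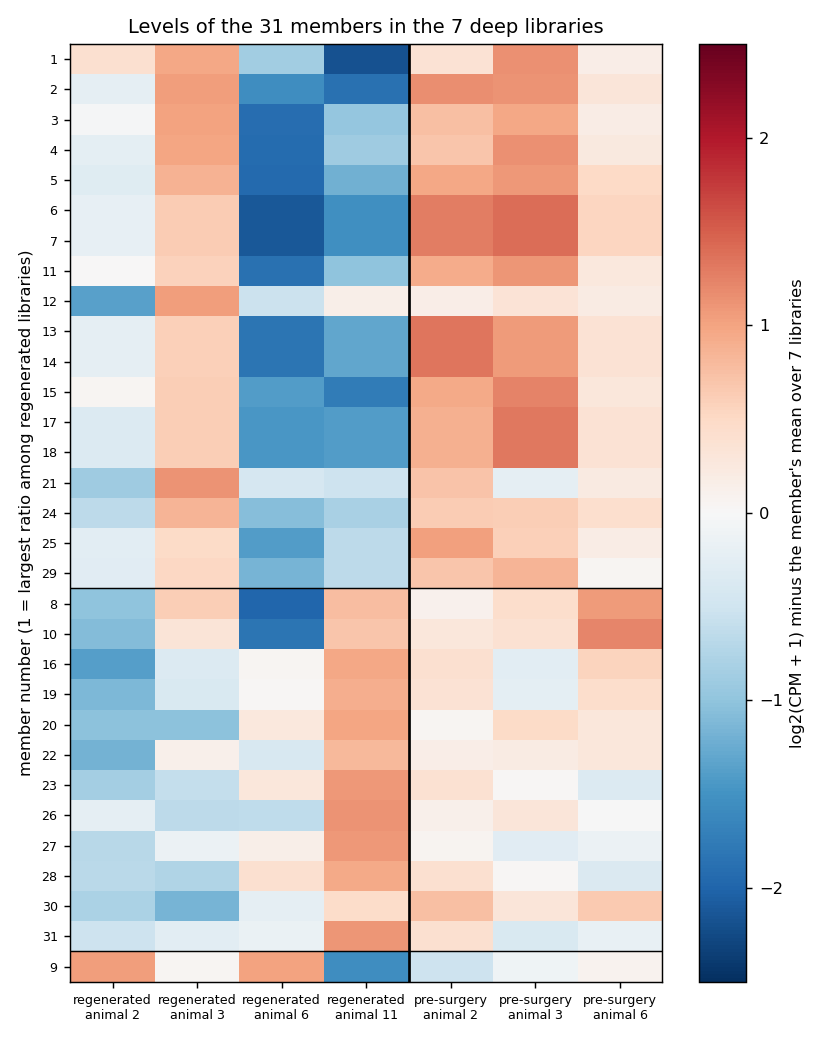
Rows are the 31 members, numbered from 1 for the largest ratio among regenerated libraries, and columns are the 4 regenerated and then the 3 pre-surgery libraries. Colour is log2(CPM + 1) minus the member's mean over the 7 libraries, and black lines separate the 18 members highest in animal 3, the 12 highest in animal 11 and the 1 highest in animal 2. In the upper block the regenerated libraries of animals 6 and 11 are low while that of animal 3 resembles the pre-surgery libraries.

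Whole libraries also differed in level. The regenerated library of animal 11 stood above the mean of the other regenerated libraries by a median of 0.25 on the log2 scale over all 1019 rows, and the others stood at -0.11 to -0.04. The 20 rows with the most counts summed over the 7 libraries took 33.2% of the counts in the regenerated library of animal 11. The same rows took 40.0% to 45.8% in the other regenerated libraries and 33.1% to 36.6% in the pre-surgery libraries. With TMM scaling, which adjusts for such differences, the regenerated library of animal 11 was the highest in 23.8% of all rows. It was the highest in 11 of the 31 members, so its share among members was above that of all rows, unlike on library totals. Over the members the median position was 1.53 for animal 3, 0.15 for animal 2, -0.46 for animal 11 and -1.02 for animal 6. Under TMM scaling 30 of the 31 members had the same highest library, and 25 still had a ratio of at least 3, with ratios from 2.41 to 10.7. Those that fell below 3 were all among the members highest in animal 11. The part of library composition in the members' spread was not tested further.

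**Figure D3:**
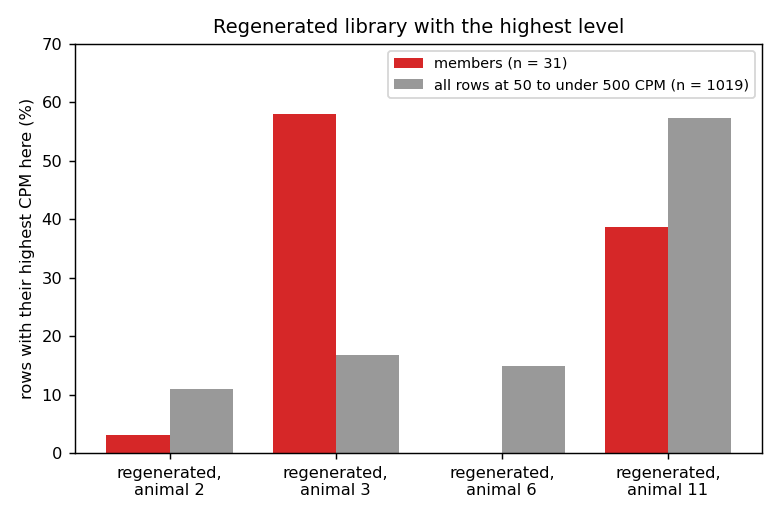
Bars give the percentage of rows whose highest regenerated level was in the library of each animal, for the 31 members and for all 1019 rows at 50 to under 500 CPM. The library of animal 3 leads among members at 58.1%, while that of animal 11 leads among all rows at 57.3%. Levels are on library totals. With TMM scaling the library of animal 11 was the highest in 23.8% of all rows and in 11 of the 31 members.

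The 18 members highest in animal 3 stood near their pre-surgery level in that animal at the median and low in the others. Their median levels in regenerated jaw were 62.7 CPM in animal 2, 148 CPM in animal 3, 31.8 CPM in animal 6 and 43.5 CPM in animal 11. In pre-surgery jaw the medians were 139 CPM in animal 2, 173 CPM in animal 3 and 100.2 CPM in animal 6. The regenerated library of animal 3 lay within the pre-surgery range in 14 of the 18 and above it in 4, against 42.6% and 24.0% of all 1019 rows. The regenerated libraries of animals 6 and 11 lay below that range in all 18, and that of animal 2 in 17. Over all 1019 rows, libraries below the pre-surgery range were that of animal 6 in 35.2%, that of animal 11 in 15.6% and that of animal 2 in 42.5%. These 18 were grouped because the regenerated library of animal 3 was the highest, and the required overlap kept that library from lying below the range. The limits on the ratios also put at least 1 regenerated library outside the range in every member. These counts are thus partly fixed by the choice and are a description only. Pre-surgery jaw of animal 6 was the lowest of the 3 before surgery in 16 of the 18, and its regenerated jaw was the lowest of the 4 in 13 of the 18. Over all 1019 rows its regenerated jaw was the lowest in 25.3%, and the share for its pre-surgery jaw was not computed. In 9 of the 18 the largest step on the log2 scale parted animals 2 and 3 from animals 6 and 11, in 8 it parted animal 3 from the rest, and in 1 it parted animal 11.

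ENSXETT00000051876 had the second-largest ratio, 7.54. It stood at 326, 787, 129 and 104 CPM in regenerated jaw of animals 2, 3, 6 and 11, against 852, 826 and 466 CPM in pre-surgery jaw of animals 2, 3 and 6. Regenerated jaw of animal 3 was near the level of pre-surgery jaw of animals 2 and 3, and the other regenerated jaws were all below every pre-surgery jaw. The group means were 336 ± 316 (SD, n = 4) CPM in regenerated jaw and 715 ± 216 (SD, n = 3) CPM in pre-surgery jaw. Its lowest value, 104 CPM, rests on 75 reads, with an exact 95% Poisson interval of 81.4 to 130 CPM, and its highest regenerated value has an interval of 731 to 846 CPM. Such intervals cover counting error only. Without animal 3 its ratio was 3.13.

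ENSXETT00000006951 had the largest ratio of all members, 8.96, at low counts. Its levels were 54.9, 82.1, 22.3 and 8.28 CPM in regenerated jaw of animals 2, 3, 6 and 11, against 53.2, 92.2 and 46.4 CPM in pre-surgery jaw of animals 2, 3 and 6. Regenerated and pre-surgery jaw were close in animals 2 and 3, and regenerated jaw was lower in animal 6. The regenerated value of animal 11 rests on 6 reads, with an exact 95% Poisson interval of 3.04 to 18.0 CPM, and without that library the ratio was 3.57. The means were 41.9 ± 33.2 (SD, n = 4) CPM in regenerated jaw and 63.9 ± 24.7 (SD, n = 3) CPM in pre-surgery jaw.

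Other members of this kind ranged in level and in shape. Member 4 stood at 130, 306, 40.3 and 82.8 CPM in regenerated jaw of animals 2, 3, 6 and 11, against 250, 345 and 183 CPM in pre-surgery jaw of animals 2, 3 and 6. Member 11 stood at 289, 428, 77.5 and 142 CPM in regenerated jaw, against 543, 621 and 344 CPM in pre-surgery jaw, in the same order of animals. Both had the regenerated library of animal 6 lowest and that of animal 3 highest. The levels of member 24 were 185, 525, 139 and 164 CPM in regenerated jaw, against 452, 445 and 387 CPM in pre-surgery jaw. In this member 3 regenerated jaws lay together below every pre-surgery jaw and the fourth lay above them all. Member 12 had the most even pre-surgery levels of the kind, at 97.9, 111 and 100.03 CPM, against 33.4, 182, 59.4 and 96.6 CPM in regenerated jaw of animals 2, 3, 6 and 11. Here regenerated jaw of animal 2 was the lowest.

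The 12 members highest in animal 11 had another shape, with regenerated jaw of animal 2 low and that of animal 11 high. Their median levels in regenerated jaw were 42.4 CPM in animal 2, 70.2 CPM in animal 3, 84.9 CPM in animal 6 and 161 CPM in animal 11. In pre-surgery jaw the medians were 83.2 CPM in animal 2, 86.3 CPM in animal 3 and 113 CPM in animal 6. The regenerated library of animal 11 lay above the pre-surgery range in 9 of the 12 and within it in 3, against 52.1% of all 1019 rows above it. These 12 were grouped because that library was the highest. That of animal 2 lay below the range in all 12, against 42.5% of all rows, that of animal 3 in 8, against 33.4%, and that of animal 6 in 5, against 35.2%. The regenerated ratios of these 12 ran from 3.05 to 6.72, with a median of 3.90, against a median of 5.30 for the 18 highest in animal 3. The pre-surgery library of animal 11 was too shallow for these rows, so whether animal 11 was already high before surgery was not tested.

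ENSXETT00000060484 had the largest ratio of this kind among members whose mean was higher in regenerated jaw. Its levels were 33.4, 40.0, 74.3 and 130 CPM in regenerated jaw of animals 2, 3, 6 and 11, against 79.7, 61.9 and 47.6 CPM in pre-surgery jaw of animals 2, 3 and 6. Regenerated jaw of animals 2 and 3 lay below every pre-surgery jaw, that of animal 6 lay among them, and that of animal 11 lay above them. The means were 69.4 ± 44.1 (SD, n = 4) CPM in regenerated jaw and 63.1 ± 16.1 (SD, n = 3) CPM in pre-surgery jaw, a difference within the spread of either group. Its ratio was 3.80, and 2.19 without the regenerated library of animal 11. With TMM scaling it was 2.999, just under the limit of 3, and with DESeq2 size factors 3.075.

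Member 19 had the highest counts of this kind, at 192, 323, 427 and 789 CPM in regenerated jaw of animals 2, 3, 6 and 11, against 539, 353 and 566 CPM in pre-surgery jaw of animals 2, 3 and 6. Member 26 had the largest excess of animal 11, 3.04 times the mean of the other regenerated jaws, at 121, 88.6, 90.2 and 305 CPM, against 152, 173 and 139 CPM in pre-surgery jaw. Member 22 had nearly equal pre-surgery levels of 267, 274 and 293 CPM, against 105, 260, 180 and 422 CPM in regenerated jaw of animals 2, 3, 6 and 11. In all 3 of these, regenerated jaw of animal 11 was above every pre-surgery jaw and regenerated jaw of animal 2 below. Members 8 and 10 differed, since regenerated jaw of animal 3 was high beside that of animal 11. Member 8 stood at 23.9, 75.6, 11.7 and 84.2 CPM in regenerated jaw of animals 2, 3, 6 and 11, against 53.2, 67.2 and 104 CPM in pre-surgery jaw of animals 2, 3 and 6.

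ENSXETT00000003264 was the exception to both shapes. It stood at 164, 81.1, 158 and 26.2 CPM in regenerated jaw of animals 2, 3, 6 and 11, against 54.6, 72.5 and 83.4 CPM in pre-surgery jaw of animals 2, 3 and 6. Regenerated jaw of animals 2 and 6 lay above every pre-surgery jaw and that of animal 11 below, while that of animal 3 lay among them. The means were 107 ± 65.8 (SD, n = 4) CPM in regenerated jaw and 70.1 ± 14.5 (SD, n = 3) CPM in pre-surgery jaw. The value of animal 11 rests on 19 reads, with an exact 95% Poisson interval of 15.8 to 41.0 CPM. The ratio of 6.04 was 2.01 without that library.

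**Figure D4:**
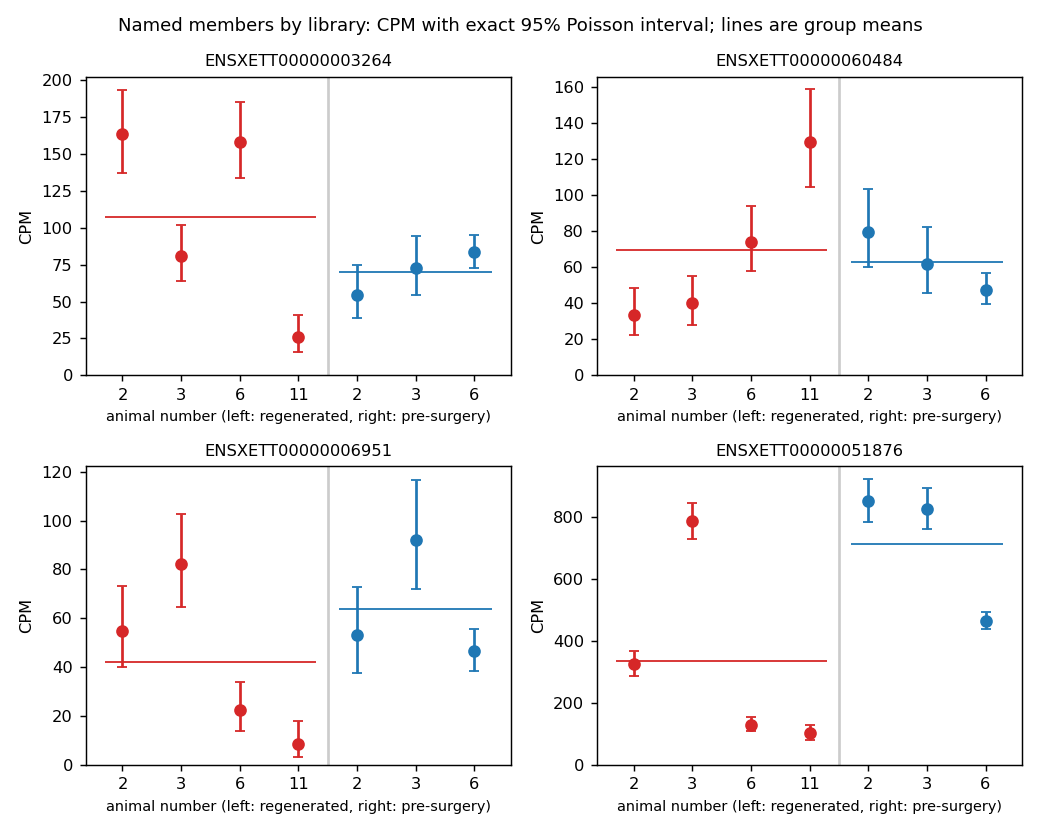
Panels show the 4 transcripts named by identifier, with CPM on the vertical axis, 4 regenerated libraries at left and 3 pre-surgery libraries at right by animal number. Points carry exact 95% Poisson intervals, which cover counting error only, and lines are group means. In each panel the regenerated points spread further than the pre-surgery points.

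Within an animal, members were low after regeneration in animals 2 and 6 and near their earlier level in animal 3. The median log2 ratio of regenerated to pre-surgery jaw over the 31 members was -1.23 in animal 2, -0.17 in animal 3 and -1.47 in animal 6. Over all 1019 rows it was -0.14 in animal 2, -0.02 in animal 3 and -0.08 in animal 6. A log2 ratio under -1 was reached by 21 members in animal 2, against 4.81% of all rows. It was reached by 2 members in animal 3, against 1.37% of all rows, and by 18 members in animal 6, against 4.81% of all rows. The levels behind these ratios also chose the members for their spread after regeneration, so the counts are a description and not a test.

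The members can also be read by the library that was highest, a split that itself fixes which library stands high. Of the 18 highest in animal 3, the median log2 ratio was -1.28 in animal 2, -0.27 in animal 3 and -1.83 in animal 6. In animal 11 it was -2.17 when set against the mean of the 3 pre-surgery jaws, since that animal has no usable pre-surgery library. Of the 12 highest in animal 11, the median was -1.18 in animal 2, -0.11 in animal 3, -0.45 in animal 6 and 0.71 for animal 11 against the pre-surgery mean. Animal 2 was below its own pre-surgery level in all 12 of these members and in 17 of the 18. The median over all 1019 rows was also negative in animal 2, at -0.14. For animal 11 against the pre-surgery mean, the median over all rows is not given here. The regenerated library of animal 11 lay above the pre-surgery range in 52.1% of all 1019 rows.

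**Figure D5:**
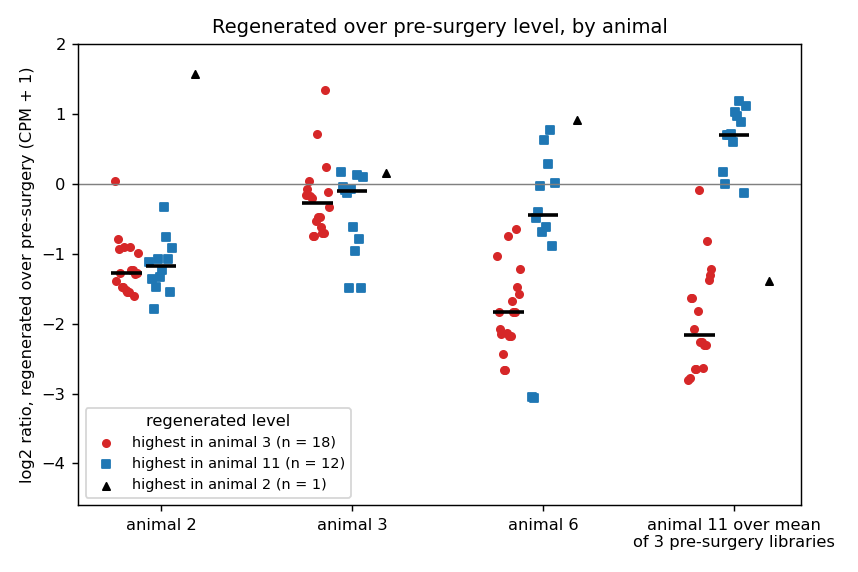
Points are members, coloured by the animal whose regenerated library was highest, and bars are medians. The vertical axis is the log2 ratio of the regenerated to the pre-surgery level (CPM + 1) within animals 2, 3 and 6, and for animal 11 against the mean of the 3 pre-surgery libraries. In animal 11 the median was -2.17 for members highest in animal 3 and 0.71 for those highest in animal 11, on opposite sides of 0. The regenerated library of animal 11 lay above the pre-surgery range in 52.1% of all 1019 rows.

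Between regenerated and pre-surgery jaw, edgeR's quasi-likelihood test called 0 of the 31 members at a Benjamini-Hochberg adjusted p of at most 0.05, against 23 of 4089 transcripts (0.562%). All 31 members passed the filter on low counts. DESeq2, which called 1.74% of all transcripts, and limma-voom, which called 0.905%, also called 0 members. An unadjusted edgeR p under 0.05 was reached by 8 of the 31, against 13.2% of all transcripts tested. The members were chosen partly by the overlap of these same groups, so nothing is read from these counts. The median log2 fold change of regenerated over pre-surgery jaw was -0.73 over the members, with a range from -1.48 to 0.64, and 0.01 over all transcripts tested. The mean level was lower in regenerated jaw in 26 members, among them all 18 highest in animal 3 and 8 of the 12 highest in animal 11. It was higher in 5. With the animal as a replicate block, where only animals 2, 3 and 6 inform the contrast, 5 members passed (edgeR), all lower in regenerated jaw, beside 1.15% of all transcripts called lower. Of these 5, 4 were highest in animal 3 and 1 in animal 11. Without the low-count filter the unblocked fit called 17 members, all lower, beside 1.0% of 18034 transcripts called lower, and without the regenerated library of animal 3 it called 1, beside 0.757% called lower.

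Some members carried nearly the same measurement. Among the 31, 3 pairs of rows had equal counts in every library, so the members form 28 sets of near-identical rows, and all 3 pairs were highest in animal 3. In 4 pairs the numbers in the identifiers lay within 10 of each other, and each pair had its animals in the same order. These pairs held 8 of the 31 members, while 413 of the 1019 rows (40.5%) had another of the 1019 rows as close, a larger set in which to find a neighbour. The level of member 3 was 0.37 to 0.50 times that of member 4 in all 7 libraries. That of member 16 was 0.25 to 0.33 times that of member 19, that of member 10 was 0.86 to 1.18 times that of member 8, and that of member 18 was 1.10 to 2.36 times that of member 6. Whether such rows share reads or a gene was not tested.

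More abundant transcripts showed the shape of animal 3 as well. Of the 252 rows at 500 CPM or more, 24 (9.52%) met the other criteria, and these formed 20 near-identical sets. The regenerated library of animal 3 was the highest in 22 of the 24 and that of animal 11 in 2, against 19.4% and 67.9% of all 252 rows. The order from animal 3 through animals 2 and 11 to animal 6 held 19 of the 24, and its share over all 252 rows is not given here. Their ratios ran from 3.43 to 7.27, with a median of 4.53. Of 1359 rows from 20 to under 50 CPM, 80 (5.89%) met the other criteria. There the highest library was that of animal 11 in 46, of animal 6 in 12, and of animals 2 and 3 in 11 each. Over all 1359 rows the highest was that of animal 11 in 47.6%, of animal 6 in 20.5%, of animal 3 in 16.6% and of animal 2 in 15.3%. The order from animal 3 through animals 2 and 11 to animal 6 held 6 of the 80. Its share over all 1359 rows is not given here, so whether that shape stood out there was not tested. From 20 to under 50 CPM counting error adds more to the ratios. These rows come from the same libraries as the members, so they are no repeat of the observation.

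All members together took 0.293%, 0.537%, 0.245% and 0.408% of the counts in regenerated jaw of animals 2, 3, 6 and 11. They took 0.654%, 0.641% and 0.505% in pre-surgery jaw of animals 2, 3 and 6. The summed share of each regenerated jaw was thus below every pre-surgery jaw except for animal 3, which lay between the pre-surgery jaw of animal 6 and those of animals 2 and 3. The pre-surgery library of animal 11, which the choice did not use, held 0 reads on members among 489. A floor of 3 reads there is a share of 0.613%, which was set as a floor on counts and not computed as a confidence limit. That floor lies above the share in pre-surgery jaw of animal 6 and just below those of animals 2 and 3. At the shares of these pre-surgery jaws, 489 reads would hold 2.47 reads (animal 6) to 3.20 reads (animal 2) on members. No interval is given for so few reads, and whether the share in animal 11 before surgery differed from theirs was not tested.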

How the data were processed

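Poly(A)-enriched RNA of 8 jaw samples was sequenced as single-end reads of 75 nt, per the labels' protocols. The authors deposited raw read counts per transcript identifier; the aligner, counter and reference are not given in the sources used here. DESeq and DESeq2 appear in the submitters' processing notes, without version or role. CPM were computed on library totals, so that 3 counts equal 1.19 to 4.20 CPM in the 7 libraries used. Groups and animal numbers come from the sample titles. Whether samples were extracted separately is not stated. Read as animal numbers, the titles give each library of a group its own animal. The p-values then rest on the spread between animals together with technical spread. The members and the settings were chosen with earlier results of these data known.

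The groups were compared over the whole table, without the near-empty library, in edgeR 4.0.16 (R 4.3.3) with the quasi-likelihood test, TMM scaling, edgeR's default expression filter and Benjamini-Hochberg adjustment. DESeq2 1.42.0, limma-voom (limma 3.58.1), other scalings, filters and thresholds, thinning to 714809 counts, leaving out each library and a replicate block were alternatives. Same-numbered libraries were taken as the same animal from the titles; their deviations from the group means correlated at 0.08, 0.19 and 0.14 in animals 2, 3 and 6, against -0.12 to 0.05 between other numbers. Near-identical rows were those whose counts agreed in all libraries within 10% or 3 reads. The scripts were tested on simulated data. Identifiers were printed for the 2 members with the largest ratio among those whose mean was above the pre-surgery mean and the 2 among those below it. Other members are numbered from 1 to 31 by falling ratio; those described were picked after their values were seen, except members 26 and 8, which have the largest excess of animal 11 and the largest deficit of animal 6.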

Additional observations from a re-analysis of the deposited data

Results flagged for a closer look

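In 4 of the 31 members 1 regenerated library stood apart from the other 3 by Dixon's test at its 95% critical value. The test was run on 34 groups of values, and chance flags about 5% of groups that were not selected. That rate does not hold for the members, which were chosen for their spread in these same libraries. The flags thus only describe the shape and are no test of the spread. Member 21 stood at 162 CPM in regenerated jaw of animal 3, with the next library at 55.2 CPM. Member 24 stood at 525 CPM in the same library, with the next at 185 CPM. Member 26 stood at 305 CPM in regenerated jaw of animal 11, with the next at 121 CPM. Member 31 stood at 119 CPM in the same library, with the next at 48.8 CPM. The total count, the TMM factor and the share of counts on members gave no flag in regenerated jaw.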

How the results depend on the processing

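The number of members, 31, moved by less than 1.5 times with TMM scaling or DESeq2 size factors (24 each, 20 of them shared). It did so too with 0 or 5 CPM added, a regenerated limit of 2.5 or 4, or 1 row per near-identical set. Thinning to equal totals gave 31 rows, 26 of them shared. A pre-surgery limit of 1.5 left 8. Leaving out 1 library gave 13 to 41 members: 13 without regenerated jaw of animal 3 (12 shared) and 19 without that of animal 11 (all shared). With the same 31 members kept, the numbers highest in each regenerated library stayed within 1.5 times under TMM scaling and DESeq2 size factors. They did so too with 1 row per near-identical set. These numbers were not taken over the 24 rows that met the rule under each scaling. Over all 1019 rows, the share highest in animal 11 fell from 57.3% to 23.8% with TMM scaling.

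The edgeR count of 23 calls was 73 with all 8 libraries, 41 with library totals, 71 in DESeq2, 37 in limma-voom, 308 without a filter and 1 at an adjusted p of at most 0.01. With the replicate block it was 116, and 239 with all 8 libraries. Members called numbered 5 with the block, 14 with the block and all 8 libraries (13 lower and 1 higher), and 17 without a filter. Of all transcripts tested, 2.84%, 6.66% and 1.71% were called in these settings, in the same order. The fit on all 8 libraries adds pre-surgery jaw of animal 11, with 0 reads on members among 489. Leaving out 1 library gave 1 to 55 calls (55 without regenerated jaw of animal 3 or of animal 11, 1 without pre-surgery jaw of animal 2 or of animal 3, 4 without that of animal 6) and 0 or 1 member. The causes were not tested. Library totals under 1000000 in 6 of the 7 libraries limit ratios whose lowest level rests on few reads, 6 at the least.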
